A study of Mus musculus with 16 samples.

Results

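Low-GC promoter regions are open stretches of chromatin that lie at a gene start but lack the base composition most mouse promoters have. They were picked from 26213 union regions, made by merging the strongest ATAC-seq peaks of each of 14 libraries, as many from each list as the shortest list held. A region was kept where its summit, the point of highest signal, fell within 1 kb of a GENCODE M21 transcript start of a protein-coding gene and where G and C made up less than 50% of a window reaching 100 bp to either side of it. That left 452 regions, 1.72% of the union regions, at 440 named genes. The other promoter regions, with 50% GC or more, numbered 9043, and 16718 regions were distal, with the summit farther than 1 kb from any such start.

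Chromatin accessibility was measured in C2C12 iMyoD1, a line of mouse skeletal muscle myoblasts that keeps its endogenous MyoD1 gene and carries a doxycycline-inducible Halo-MyoD1 transgene. All groups shared this genotype, and the study describes the inducible line as polyclonal. It reports that dox brought detectable Halo-MyoD1 to only a part of the nuclei. Treatment was with doxycycline (+dox) or its vehicle (no dox) over 24 h, either in growth medium with 20% fetal bovine serum (GM) or under 24 h of serum starvation, which starts differentiation (DM). GM no dox and GM +dox were seeded at 75000 cells per well, and DM no dox and DM +dox at 300000, so medium and seeding density cannot be told apart. Each group had 4 libraries labelled as biological replicates. Replicate 1 of each DM group was left out, as in the methods of the study, which gave groups of 4, 4, 3 and 3 libraries. A lower peak in such bulk libraries can come from fewer cells with the site open or from less opening per cell, and these cannot be told apart.

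Most mammalian promoters lie in CpG islands, stretches rich in G, C and unmethylated CpG, where Sp1-type and ETS factors bind and nucleosomes are kept off in nearly all cell types. Promoters outside islands are known for genes switched on in 1 tissue or in response to a signal, and they lean more on factors that bind A- and T-rich or mixed sequence, such as TBP at the TATA box, NF-Y at the CCAAT box and AP-1, the dimer of FOS and JUN proteins. MyoD1 binds E-boxes, CANNTG, with CAGCTG as its preferred form.

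The sequences below are from these windows (mm10, which is GRCm38), written 5′ to 3′ on the strand of the gene with annotated exon bases removed. The first set shows the best shared low-GC promoters, with each CCAAT box in capitals, read on either strand as CCAAT or its complement.
Gbf1 (chr19:46152270-46152470, + strand): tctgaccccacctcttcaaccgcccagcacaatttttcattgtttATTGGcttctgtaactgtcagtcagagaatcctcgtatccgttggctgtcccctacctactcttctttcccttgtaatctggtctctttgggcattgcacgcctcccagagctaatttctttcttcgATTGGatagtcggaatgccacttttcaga
Pxmp4 (chr2:154603709-154603909, - strand): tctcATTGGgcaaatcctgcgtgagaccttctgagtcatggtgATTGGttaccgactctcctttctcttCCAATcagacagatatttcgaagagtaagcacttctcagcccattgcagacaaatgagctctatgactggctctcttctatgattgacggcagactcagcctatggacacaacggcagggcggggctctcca
Ska2 (chr11:87108919-87109119, + strand): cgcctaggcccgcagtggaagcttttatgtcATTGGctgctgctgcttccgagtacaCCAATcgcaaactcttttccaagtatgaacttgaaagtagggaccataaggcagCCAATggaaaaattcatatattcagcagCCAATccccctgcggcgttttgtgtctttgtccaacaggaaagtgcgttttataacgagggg
Eif2ak3 (chr6:70844259-70844459, + strand): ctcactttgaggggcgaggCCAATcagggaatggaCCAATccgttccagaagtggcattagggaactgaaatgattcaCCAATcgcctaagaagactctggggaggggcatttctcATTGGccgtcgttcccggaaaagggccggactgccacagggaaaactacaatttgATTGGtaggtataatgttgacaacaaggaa
Atp5b (chr10:128083054-128083254, + strand): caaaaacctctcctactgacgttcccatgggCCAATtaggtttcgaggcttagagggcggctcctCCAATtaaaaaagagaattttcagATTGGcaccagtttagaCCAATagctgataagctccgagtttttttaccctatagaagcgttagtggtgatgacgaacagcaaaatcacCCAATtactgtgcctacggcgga

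A second set is from histone gene promoters, which make up a visible group among the members, again with CCAAT boxes of either strand in capitals. The last line of it is the fast skeletal myosin light chain gene Mylpf, the best shared low-GC promoter among the sarcomere genes.
Hist1h2ac (chr13:23683949-23684147, - strand): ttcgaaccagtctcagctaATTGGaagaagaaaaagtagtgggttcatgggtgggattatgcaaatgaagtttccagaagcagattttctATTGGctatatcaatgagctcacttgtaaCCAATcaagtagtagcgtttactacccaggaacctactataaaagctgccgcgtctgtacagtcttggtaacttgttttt
Hist1h2bk (chr13:22035668-22035868, + strand): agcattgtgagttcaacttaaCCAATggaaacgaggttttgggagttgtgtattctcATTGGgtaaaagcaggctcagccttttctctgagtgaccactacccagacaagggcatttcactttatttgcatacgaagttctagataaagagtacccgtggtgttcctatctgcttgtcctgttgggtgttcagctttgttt
Hist1h2bb (chr13:23746500-23746659, + strand): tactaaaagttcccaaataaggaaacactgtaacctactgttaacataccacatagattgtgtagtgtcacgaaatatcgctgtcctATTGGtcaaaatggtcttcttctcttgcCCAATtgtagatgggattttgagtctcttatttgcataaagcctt
Mylpf (chr7:127208952-127209096, + strand): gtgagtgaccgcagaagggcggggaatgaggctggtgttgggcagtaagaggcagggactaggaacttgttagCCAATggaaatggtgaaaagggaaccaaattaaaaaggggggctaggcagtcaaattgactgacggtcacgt

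The third set is from genes of innate immunity and from Tnrc6b, whose window had the lowest GC content of all members. Capitals mark the AP-1 site TGANTCA and, in Ccl7, also the TATA box shortly before the transcript start.
Ifi204 (chr1:173767014-173767214, - strand): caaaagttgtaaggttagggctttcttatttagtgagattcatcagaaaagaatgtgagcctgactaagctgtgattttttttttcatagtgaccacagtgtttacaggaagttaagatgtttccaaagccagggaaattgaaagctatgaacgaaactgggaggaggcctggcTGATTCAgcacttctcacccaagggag
Il6 (chr5:30012806-30013006, + strand): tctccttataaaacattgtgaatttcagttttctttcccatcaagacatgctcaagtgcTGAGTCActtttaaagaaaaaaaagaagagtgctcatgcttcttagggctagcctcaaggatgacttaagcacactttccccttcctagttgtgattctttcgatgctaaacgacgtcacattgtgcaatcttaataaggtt
Ccl7 (chr11:82045541-82045711, + strand): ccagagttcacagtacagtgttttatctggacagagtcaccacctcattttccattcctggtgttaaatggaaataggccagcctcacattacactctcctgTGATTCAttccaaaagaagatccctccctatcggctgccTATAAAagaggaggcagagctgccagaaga
Tnrc6b (chr15:80915714-80915914, + strand): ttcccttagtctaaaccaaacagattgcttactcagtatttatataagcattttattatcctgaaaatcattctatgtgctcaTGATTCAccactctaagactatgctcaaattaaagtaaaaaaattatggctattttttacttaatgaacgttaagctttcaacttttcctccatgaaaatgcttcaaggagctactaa

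The fourth set is from 2 regions whose peaks were not among the strongest in some differentiating cells, those of DM +dox for Lrrc30 and those of both DM groups for Glis3. Capitals mark CAGCTG in Lrrc30, while the Glis3 window has no capitals because it held neither CAGCTG nor TGANTCA nor CCAAT.
Lrrc30 (chr17:67632859-67633059, - strand): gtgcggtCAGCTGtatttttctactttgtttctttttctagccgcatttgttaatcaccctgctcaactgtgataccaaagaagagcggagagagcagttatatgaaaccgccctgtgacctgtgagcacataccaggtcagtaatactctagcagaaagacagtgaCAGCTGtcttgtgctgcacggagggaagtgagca
Glis3 (chr19:28284199-28284399, - strand): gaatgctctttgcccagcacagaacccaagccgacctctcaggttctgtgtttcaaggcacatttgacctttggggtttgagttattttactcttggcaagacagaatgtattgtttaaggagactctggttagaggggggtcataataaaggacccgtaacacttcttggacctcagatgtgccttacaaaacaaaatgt

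The 452 windows had a median GC content of 47.3%, from 30.3% at Tnrc6b to 49.8%, against 65.7% for the high-GC promoter regions and 50.2% for the distal regions. The ratio of observed to expected CpG had a median of 0.334, compared with 0.834 at high-GC promoters and 0.212 at distal regions. The rule itself sets the members below the other promoters in GC content, so that gap is not a result. By the CpG ratio, which the rule does not use directly, the members stood closer to distal regions than to other promoters. How far that ratio depends on GC content was not tested. To keep base composition apart from position, the 7880 distal regions with GC under 50% were used as a further comparison class.

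The threshold of 50% divides a continuum. The 49 regions just inside it, 1 base short of the threshold, had a peak in a median of 8 libraries, and the 65 just outside also in a median of 8. Just inside stood Pxmp4, Eif2ak3 and Tmem218, and just outside stood Hnrnpc, Hdgfl2 and Usp1, each with a peak in all 14 libraries. At the other end, the 3 members of lowest GC were Tnrc6b, whose product acts in microRNA silencing, with a peak in 12 libraries, Gtsf1, a factor of the germline piRNA pathway, with a peak in 1, and Ifi202b, an interferon-inducible gene with GC of 35.3%, also in 1.

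On a scale where negative positions lie before the nearest transcript start, summits of the members had a median of −84 bp, with quartiles of −282.5 and 43.5 bp. Within 250 bp of a start were 243 of 452 (53.8%), compared with 7980 of 9043 high-GC promoter regions (88.2%). The nearest start belonged to a protein-coding transcript for 290 members, and for 162 (35.8%) to a non-coding transcript annotated to the same gene. The summit was in an intron of an annotated transcript for 216 members, between genes for 135, in a non-coding part of an exon for 90 and in a coding exon for 11. When the window was moved from the summit to the transcript start, 227 of the 452 (50.2%) had 50% GC or more and would not have met the GC rule there.

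A gene can have several promoters, and 187 members (41.4%) were at genes with a high-GC promoter region as well. These were shared by fewer libraries, a median of 4, compared with 8 for the 265 members at genes without one. Of the 187, 36.4% had the summit within 250 bp of a start and 43.3% held TGANTCA. Of the 265, 66.0% lay that close and 27.2% held it. In 2 members (0.442%) most of the window was marked as repeat sequence, against 2.93% of distal regions.

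The question of how steady these promoters were across the culture conditions was taken up first by counting libraries. A region was scored as open in a library when 1 of that library's strongest peaks touched it, with lists of equal length. Low-GC promoter regions had a peak in a median of 7 of 14 libraries, high-GC promoter regions in 12, distal regions in 6 and low-GC distal regions in 5. A peak in all 14 libraries was found at 97 members (21.5%), at 37.3% of high-GC promoter regions and at 11.1% of low-GC distal regions. At the other extreme, 87 members (19.2%) had a peak in 1 library, compared with 7.84% of high-GC promoter regions and 24.8% of low-GC distal regions. These counts read rank. With deposited peaks of any strength, from lists of unequal length, 45.8% of members had a peak in all 14 libraries. That was so for 54.3% of high-GC promoter regions and 32.3% of low-GC distal regions.

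**Figure D1:**
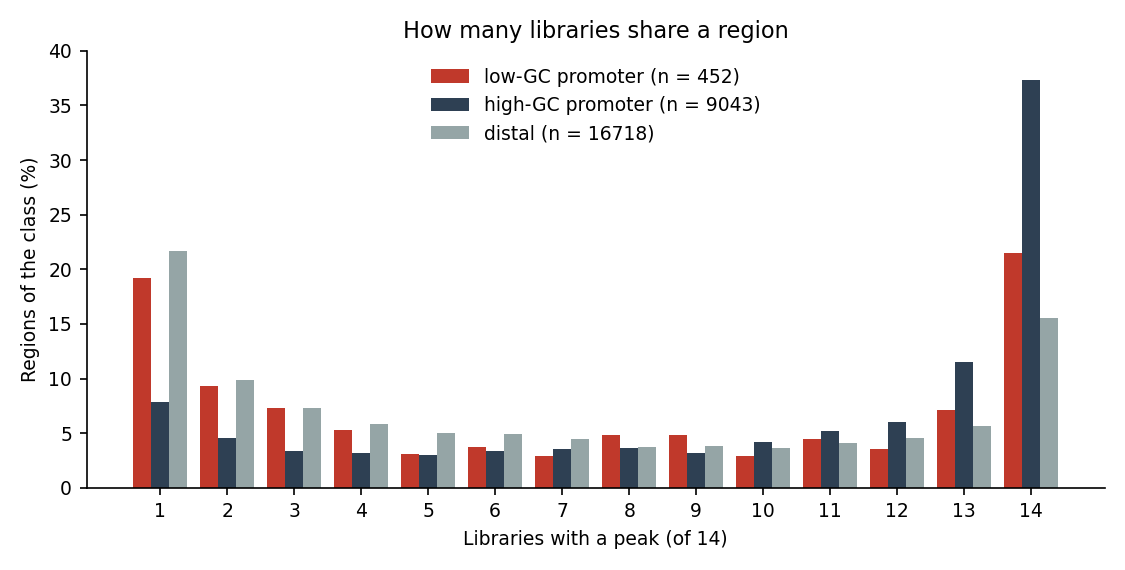
The x axis gives the number of libraries, of 14, in which a region had one of the strongest peaks, and the y axis the share of each class of region in percent. Low-GC promoter regions gather at both ends, with 87 of 452 in 1 library and 97 in all 14. Distal regions do so too, with 3618 of 16718 in 1 library and 2599 in all 14. Of the 9043 high-GC promoter regions, 709 are in 1 library and 3372 in all 14.

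Sharing rose with GC content over the promoter regions below 70% GC. A peak in all 14 libraries was found at 1 of 27 promoter regions under 40% GC, at 20.2% of 109 with 40 to 45%, at 23.4% of 316 with 45 to 50% and at 33.3% of 762 with 50 to 55%. It reached 42.5% of 2175 with 65 to 70% and was 30.2% of 2712 with 70% or more. As merged regions the members were narrower, with a median width of 611.5 bp against 767 bp for high-GC promoters. The part of width in the sharing was not tested. Among regions with a deposited peak of any strength in all 14 libraries, the median fold enrichment over background was 11.8 at 207 members, 13.7 at 4907 high-GC promoter regions and 12.1 at 2545 low-GC distal regions.

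In single libraries the share of members with a peak hardly moved. In GM no dox it was 58.8%, 51.1%, 54.0% and 50.7% in replicates 1 to 4, and in GM +dox it was 50.4%, 53.3%, 54.2% and 53.1%. In DM no dox it was 54.9%, 52.4% and 51.1%, and in DM +dox 50.4%, 49.1% and 50.7%, in replicates 2 to 4. Replicate 1 of GM no dox, the shortest list and the one that set the length of all others, had the highest share.

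Group means were 53.7% ± 3.73 (SD, n = 4) in GM no dox, 52.7% ± 1.64 (n = 4) in GM +dox, 52.8% ± 1.93 (n = 3) in DM no dox and 50.1% ± 0.85 (n = 3) in DM +dox. The difference was −0.885 percentage points for dox in GM, and the groups overlapped. Differentiation changed the share by −0.848 points in the no dox arm and by −2.69 points in the +dox arm, again with overlap. Paired by replicate number, the share was lower in DM +dox than in GM +dox in all 3 pairs, and the overlap came from GM +dox replicate 1, which had no DM partner. For dox in DM the difference was −2.73 points, the groups did not overlap and all 3 pairs were lower with dox, but the design reads these shares without a test. Low-GC distal regions went the same way, by −4.62 points for dox in DM, with overlap. The mean GC content of the strongest peaks was 57.1%, 57.6% and 59.1% in the DM no dox libraries and 57.1%, 58.8% and 59.6% in the DM +dox libraries, and its part in the result was not tested.

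**Figure D2:**
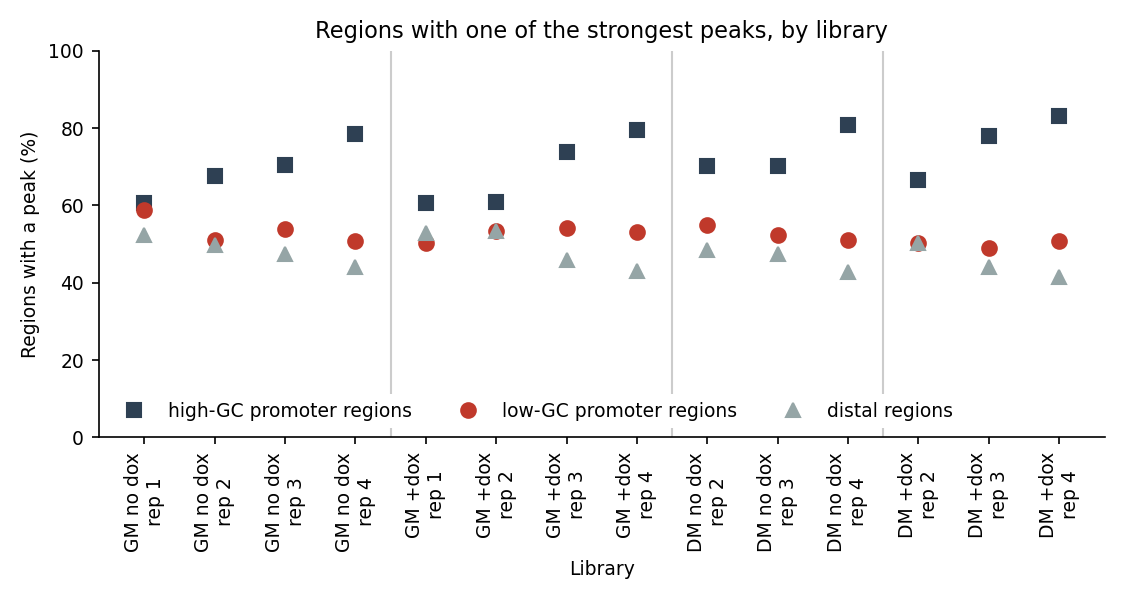
Each point is 1 of 14 libraries, and the y axis gives the share of regions of a class, in percent, that had one of that library's strongest peaks. Low-GC promoter regions (circles) keep between 49.1% and 58.8%, while high-GC promoter regions (squares) range from 60.6% to 83.2% and distal regions (triangles) from 41.5% to 53.5%.

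High-GC promoter regions varied far more, and they followed the replicate number. In libraries numbered 3 and 4 their share was 70.3% to 83.2%, and in those numbered 1 and 2 it was 60.6% to 70.3%. Distal regions moved the opposite way, 41.5% to 47.4% against 48.4% to 53.5%. Lists of equal length touched 55.3% to 56.0% of all union regions in each of the 14 libraries. A rise in 1 of these 2 large classes therefore goes with a fall in the other, and their opposite movement is not a separate result. Members stayed at 49.1% to 54.2% in libraries numbered 3 and 4 and at 50.4% to 58.8% in those numbered 1 and 2.

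What the members shared beyond the rule was looked for in the windows, as matches of fixed motifs on both strands, given as shares with no test. TGANTCA, the AP-1 site, was in 153 of 452 members (33.8%), in 6.23% of high-GC promoter regions and in 55.1% of low-GC distal regions. The members thus lay between the classes for AP-1. CATTCC, bound by TEAD factors, followed the same order, with 17.5%, 8.08% and 23.4%.

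CCAAT, the NF-Y box, was in 163 members (36.1%), in 34.9% of high-GC promoter regions and in 25.9% of low-GC distal regions. The share went with position, 46.9% of the 243 members within 250 bp of a start and 23.4% of the 209 farther away. It was 26.5% of members in 1 to 3 libraries, against 27% of low-GC distal regions in as few. Windows with 2 or more CCAAT boxes made up 17.9% of members, 13.2% of high-GC promoter regions and 3.92% of low-GC distal regions. Such pairs can be seen in the Gbf1 and Hist1h2bk windows.

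GGGCGG, the Sp1 box, was in 10.6% of members and in 65.7% of high-GC promoter regions, a gap that the GC rule partly builds in. The same holds for the ETS site CCGGAAG, with 3.98% and 17.1%, and for the NRF1 site GCATGCGC, with 1.33% and 4.78%. The YY1 site AAGATGGC was in 2.21% of members and 3.85% of high-GC promoter regions, and the CRE, TGACGTCA, in 0.442% and 3.26%.

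TATAAA occurred in 12.6% of member windows, in 1.91% of high-GC promoter windows and in 11.6% of low-GC distal windows. Placed where a TATA box works, 20 to 40 bases before the nearest start on its strand, it was found at 8 members (1.77%) and at 0.641% of high-GC promoter regions. Those 8 were at 2610528A11Rik, the keratin-associated gene Krtap1-5, Ccl7, Hist1h4j, Sprr1a, Il33, Pi15 and Dnal1. They were named after their values were seen.

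Among muscle motifs, the E-box shares of the members lay between those of high-GC promoter and low-GC distal regions. MEF2 and CArG matches were rare but more frequent in the members than in either. CAGCTG, the preferred MyoD1 E-box, was in 67 members (14.8%), in 11.8% of high-GC promoter regions and in 16.5% of low-GC distal regions. Any E-box, CANNTG, was in 64.4%, 43.8% and 72.0%. The MEF2 site was in 7 members (1.55%), in 0.177% of high-GC promoter regions and in 0.812% of low-GC distal regions. The CArG box, bound by SRF, was in 9 members (1.99%), in 0.885% and in 1.43%.

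**Figure D3:**
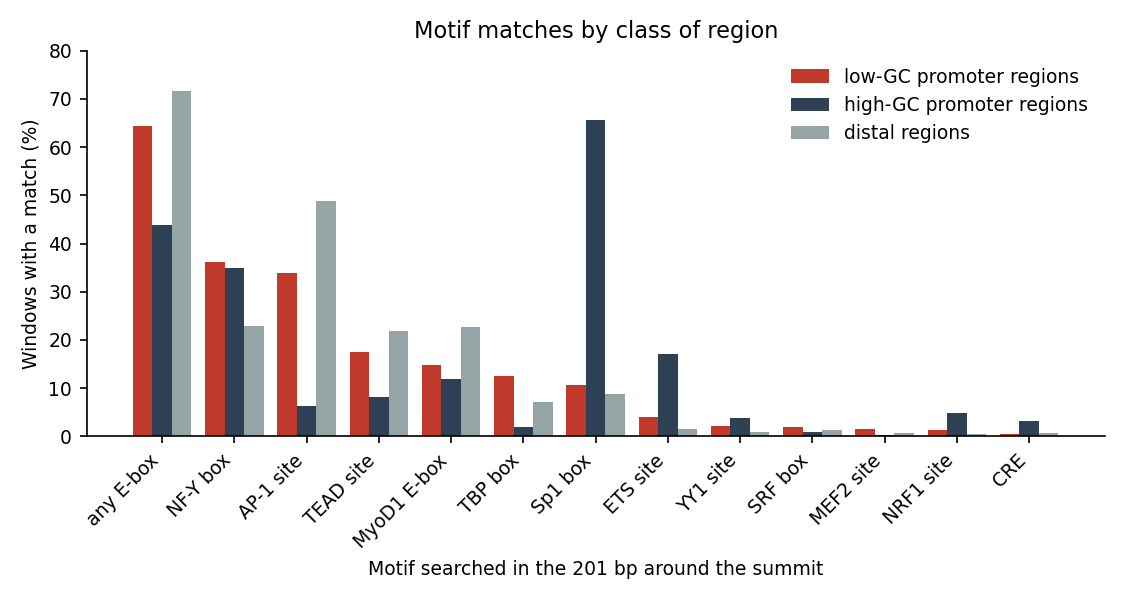
Bars give the share of windows, in percent, with at least 1 match to each motif on either strand, in low-GC promoter, high-GC promoter and distal regions. The NF-Y box is about as frequent in low-GC as in high-GC promoter windows (36.1% and 34.9%), the AP-1 site lies between the classes (33.8%, with 6.23% and 48.8%), and the Sp1 box is low (10.6%).

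CCAAT was more frequent among the members open in all libraries. Of the 97 members with a peak in all 14 libraries, 49 (50.5%) held CCAAT and 37 (38.1%) held 2 or more boxes. Of the 162 members with a peak in 1 to 3 libraries, 43 (26.5%) held it and 13 (8.02%) held 2 or more. In low-GC distal regions the share with 2 or more did not go that way, 2.05% for those in all 14 libraries and 4.38% for those in 1 to 3. High-GC promoter regions had the same trend as the members, 24.0% and 3.35%. TGANTCA showed little of this among the members, with 36.1% of those in all 14 libraries and 32.1% of those in 1 to 3.

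The position of the summit went with it. Of the 62 members with 2 or more CCAAT boxes and a summit 1 to 250 bp before the start, 32 (51.6%) were open in all 14 libraries. With 1 box it was 20.0% of 30 and with none 18.9% of 95. At other positions it was 26.3% of 19, 11.5% of 52 and 15.5% of 194. The median GC content of the first 3 groups was 47.5%, 48.0% and 47.3%, and its part in the result was not tested. Neighbouring boxes in windows with several were a median of 40 bp apart, first base to first base, in members and 41 bp in high-GC promoter regions.

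**Figure D4:**
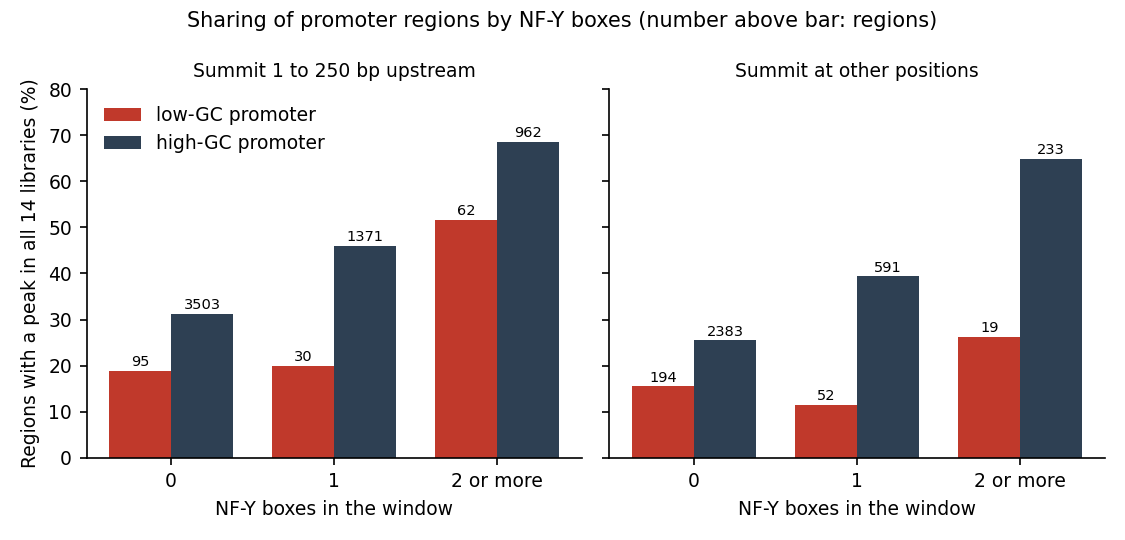
Bars give the share of promoter regions, in percent, with a peak in all 14 libraries, by the number of NF-Y boxes (CCAAT) in the window and by the position of the summit, and the number above each bar counts its regions. Members with 2 or more boxes and a summit 1 to 250 bp upstream reach 51.6%, against 18.9% without a box, and high-GC promoter regions are higher in every bar.

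CCAAT and TGANTCA fell on largely separate members. With CCAAT alone there were 129 members, 75.2% of them within 250 bp of a start and 31.0% open in all 14 libraries. With TGANTCA alone there were 119, 31.9% within 250 bp and 21.8% open in all 14. Both were in 34 members, and 170 had neither, of which 12.9% were open in all 14 and 46.5% in 1 to 3 libraries.

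The 10 strongest members were named by the mean, over the 14 libraries, of their percentile in each list by −log10 p, with a missing peak set to 0. Pxmp4, a peroxisomal membrane protein, led with a mean percentile of 99.9, and its fold enrichment ran from 13.3 to 31.9 with a median of 24.9. Gbf1, an exchange factor for Golgi ARF proteins, followed at 99.2, with folds from 9.19 to 25.3. Traf7, a ubiquitin ligase, was at 98.8 and Ska2, a kinetochore protein, at 98.0.

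Further members among the 10 were Ifi204, of the interferon-inducible p200 family, Med19, a Mediator subunit, Eif2ak3, the stress kinase PERK, Gpr108 and Arid4a, an RB-binding protein. All 10 had summits before the start, and Ska2 was the farthest at −215 bp. CCAAT was in 9 of the 10, each time with 2 or more boxes: 3 in Pxmp4, 2 in Gbf1, 4 in Ska2, 5 in Eif2ak3 and 6 in Arid4a. Ifi204 was the exception, with no CCAAT and 1 TGANTCA. Its folds were 12.3, 22.3, 18.6 and 25.2 in GM no dox, 25.8, 22.4, 23.5 and 23.9 in GM +dox, 17.1, 22.5 and 25.4 in DM no dox, and 26.3, 27.2 and 26.4 in DM +dox.

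Ifi204 was 1 of 5 members in the p200 gene cluster on chromosome 1, a set singled out after its values were seen. Its region lay at chr1:173766860-173767676. Ifi203 had a peak in 12 libraries, Ifi205 in 6, Mndal in 2 and Ifi202b in 1. The genes of this family are close copies of each other, and how reads that match several places were treated is not given in the sources used here, so their values are uncertain.

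Replication-dependent histone genes supplied 15 members at 14 genes. Of the promoter regions at genes on this list, 51.7% were low-GC, 15 against 14 high-GC, compared with 4.76% over all protein-coding genes. CCAAT was in 12 of the 15, and 4 were open in all 14 libraries, Hist1h2ac, Hist1h2bk, Hist1h2bm and Hist1h2bb. Hist1h2ac, at chr13:23683949-23684147 in the window shown, had folds from 7.46 to 21.8 with a median of 13.5. Histone genes too are near copies, and the same uncertainty applies.

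Ribosome and translation genes, taken by name, gave 8 members, 3 open in all 14 libraries and none in 3 or fewer. They included Eif4e, the cap-binding protein, at a mean percentile of 70.8, Rps26 at 67.6, Eif3f at 40.4 and Rpl23a at 23.7. Rps6kc1, a kinase-like protein, and Eif2ak3 fell on the list by name and are not parts of the ribosome. Low-GC regions were 6.11% of the promoter regions on this list.

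Mitochondrial respiration and ribosome genes also gave 8 members, 6.15% of the promoter regions on the list, with 3 in all 14 libraries and 3 in 3 or fewer. Atp5b, the catalytic subunit of ATP synthase, stood highest at a mean percentile of 87.3, with 5 CCAAT boxes in its window. Ndufs7, of complex I, followed at 50.3 and Uqcrh, of complex III, at 48.6. Zinc finger genes gave 11 members, 4.68% of their promoter regions, led by Zfp444 at 80.2, Zfp365 at 46.1 and Zfp101 at 42.1. CCAAT was in 8 of the 11.

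Muscle genes were few. Of 72 sarcomere and contraction genes, 2 had a low-GC promoter region and 19 regions were high-GC. Mylpf, the regulatory light chain of fast skeletal myosin, had folds of 8.77, 18.4, 13.3 and 15.6 in GM no dox and 16.4, 19.3, 13.2 and 14.4 in GM +dox. In DM no dox they were 15.6, 13.6 and 15.2, and in DM +dox 19.1, 17.0 and 16.4. By raw fold the 3 DM +dox values lay above the 3 DM no dox values, while each DM group overlapped its GM group. Raw folds are not normalised between libraries, and for dox in DM the sign turned after quantile normalisation. In limma the log2 difference was −0.26 for dox in DM (adjusted p = 0.767) and 0.02 for differentiation without dox (adjusted p = 0.969). A start of Tbc1d10b also lay within 1 kb of this summit. Casq2, cardiac calsequestrin, had a peak in 1 library.

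Among 34 myogenic regulators and fusion genes, low-GC regions were at Eya1, a co-activator of homeobox factors, with a peak in 6 libraries, and in an intron of Tcf4, an E-protein that pairs with MyoD1, in 10. Tcf4 was open in all 8 GM libraries and in 1 library of each DM group, which is less than the all-or-none rule below asks. Matrix and adhesion genes gave Col1a2, a chain of collagen I, in all 14 libraries, and Tnc, tenascin-C, in 8. The Col1a2 summit was at 943 bp past a start, and that gene had a high-GC promoter region too. Of 54 immediate early and stress genes only Btg1 was among the members, in 1 library.

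Cytokine and interferon genes gave 5 members of 24 promoter regions, or 20.8%, and none of the 5 was open in all 14 libraries. The chemokine Ccl7 was open in 9, Il18 in 9, Il6 in 4, Ccl9 in 2 and Il33 in 1. TGANTCA was in Ccl7, Il6 and Ccl9. Il6, a cytokine that muscle cells release, had a strong peak in no GM no dox library, in 1 of 4 with dox in GM, in 1 of 3 differentiating without dox and in 2 of 3 differentiating with it. Odorant, vomeronasal and taste receptor genes, 1517 in the annotation, gave 2 members, Olfr432 in 1 library and Vmn1r40 in 13.

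The labelled cell type was checked against markers. Promoter regions were found at 3 of 9 myoblast and muscle markers, all of them high-GC, with Myod1 and Chrna1 in all 14 libraries. Markers of other cell types had them too, 3 of 6 for neurons, 3 of 7 for bone and cartilage, 2 of 7 for fibroblasts and 1 of 5 for adipocytes, with Sox9 in 12 libraries and Pdgfrb in 10. Of 7 blood and immune, 6 epithelial and 5 endothelial markers none had one. Syt1, Tubb3 and Stmn2 had theirs in 2 libraries each, Pparg in 3, and Col2a1 and Pdgfra in 1 each. The muscle marker Cdh15 had its region in 3. A promoter region in any library thus did not single out the muscle markers. A peak in all 14 libraries was found at 2 muscle markers and at 0 markers of each other cell type. Runx2, a bone regulator, was the only marker with a low-GC promoter region, in 5 libraries.

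Which members switched between conditions was asked with an all-or-none rule: a peak among the strongest in every library of one group and in none of the other. For dox in GM, 1 member was higher, against a background of 0.163% of all 23372 union regions with a peak in either group, and 2 were lower (background 0.124%). That was 0.252% and 0.504% of 397 members. For dox in DM, 2 were higher (background 0.824%) and 2 lower (background 0.787%), or 0.556% of 360 members each way.

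Differentiation without dox gave 5 higher members (background 0.984%) and 8 lower (background 1.04%), or 1.2% and 1.93% of 415. Differentiation with dox gave 2 higher (background 1.11%) and 9 lower (background 1.1%), or 0.549% and 2.47% of 364. The share of lower members was above the background in both, on counts of 8 and 9 and with no test, and that of higher members was near or below it. High-GC promoter regions were at 0.324% and 0.344% for lower, and low-GC distal regions at 1.39% and 1.63%. Each group serves 2 of the comparisons, so they share libraries.

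The rule reads ranks, and weaker peaks were nearly always left on the other side. Of the 31 calls, at 22 members, the group scored as closed had a deposited peak of lower rank in every library for 19, in some libraries for 12 and in none for 0. With all deposited peaks in place of the strongest, 1, 5, 1 and 1 members were all-or-none in the comparisons in the order given, all of them higher and none lower. Among the 22, CCAAT was in 1 (4.55%), TGANTCA in 9 (40.9%) and CAGCTG in 2 (9.09%).

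For dox in GM the members were Cmah, which acts on sialic acids, higher, and Ccl7 and Usp12, a deubiquitinase, lower. Ccl7 is an inflammatory chemokine, and its region lay at chr11:82045515-82045940 with the summit at −71 bp from the start. Its folds were 5.95, 14.6, 9.51 and 17.1 in GM no dox and 13.7, 12.9, 11.1 and 8.56 in GM +dox. They were 8.59 and 15.9 in 2 DM no dox libraries, with no deposited peak in replicate 2, and 24.6, 14.7 and 18.8 in DM +dox. By raw fold, not normalised between libraries, the GM groups overlapped and DM +dox lay above GM +dox. Ccl7 was also called higher for differentiation with dox.

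For dox in DM, Slc45a4, a transporter gene, and Ttc41 were higher, and Lrrc30, a leucine-rich repeat gene, and Mctp2, a calcium-binding membrane protein, were lower. Lrrc30, at chr17:67632682-67633290, held CAGCTG at 2 places in the window shown. Its folds were 7.27, 12.9, 7.78 and 10.7 in GM no dox, 14.5, 13.6, 12.2 and 10.4 in GM +dox, 6.81, 9.54 and 11.0 in DM no dox, and 10.7, 11.0 and 8.83 in DM +dox. The DM groups overlapped by fold, and in limma the log2 difference was −0.26 (adjusted p = 0.814).

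For differentiation without dox, the 4 strongest higher members were Lypd6b, Zfp945, Mctp2 and St7, and the 4 strongest lower ones were Glis3, a zinc finger transcription factor, Kbtbd11, a BTB and kelch protein, Nln, a peptidase, and Rcan2, a calcineurin regulator. Snd1 was also higher, and Slc45a4, Bdkrb1, Emilin2 and Trim69 were also lower. With dox, Ccl7 and Vegfd, a lymphatic growth factor, were higher. Glis3, Kbtbd11, Nln, Lrrc30, Smchd1, Igf2bp3, Emilin2, Trim69 and Plekhh2 were lower. Glis3, Kbtbd11, Nln, Emilin2 and Trim69 were lower in both.

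The Glis3 region, at chr19:28283691-28284671, lay in an intron, at −393 bp from the start of a non-coding transcript of the gene. Its folds were 7.41, 13.8, 6.39 and 12.1 in GM no dox and 12.3, 13, 12.5 and 8.94 in GM +dox. In DM no dox they were 6.29, 6.70 and 9.64, and in DM +dox 11.7, 12.1 and 11.3. Each DM group overlapped its GM group by fold, and the DM +dox values lay above the DM no dox values (log2 difference 0.17 for dox in DM after normalisation, adjusted p = 0.887, limma). Neither log2 difference for differentiation passed the test, −0.43 without dox (adjusted p = 0.347) and −0.13 with dox (adjusted p = 0.915, limma).

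Sizes of change were then tested on the fold enrichment, while the rule had ranked peaks by p-value. Fold and p-value come from the same peak calls of the same libraries, so the test is not independent of the rule. Of the 452 members, 207 had a deposited peak in all 14 libraries and entered a limma fit over all 11011 such regions, on quantile-normalised log2 fold enrichment, with p-values adjusted over the 11011. The other 245 members were not tested in this fit. No region passed an adjusted p of 0.05 for dox in GM (0% of regions, with unadjusted p under 0.05 for 675 regions and 11 members), also with the replicate number as a block. The same was so for dox in DM (0%, with 738 regions and 11 members under an unadjusted 0.05). With the block, 10 regions passed there, none of them a member. So few calls do not show that dox had no effect, since changes too small for this fit would be missed.

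For differentiation without dox, 3 regions were higher (0.0272%) and 26 lower (0.236%), and the lower ones included 2 members, Kbtbd11 and Dynap. With the replicate block 34 were higher and 99 lower, with the same 2 members. For differentiation with dox 5 regions passed (0.0454%), all lower and none a member. With the block 32 were lower (0.291%), 1 of them a member, Igf2bp3, and 7 were higher. The dox effect in DM differed from that in GM at 0 of 11011 regions by limma's test of the difference (unadjusted p under 0.05 for 243 regions and 5 members). That test was run without the block.

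Kbtbd11 had folds of 7.03, 15.4, 9.58 and 12.7 in GM no dox and 5.58, 4.46 and 7.63 in DM no dox. With dox they were 17.2, 18.0, 11.2 and 9.54 in GM and 12.8, 11.0 and 7.52 in DM. The region, at chr8:15026655-15028081, had its summit at −347 bp from a transcript start, in a non-coding part of an exon, and held TGANTCA. It fell by 1.02 on the log2 scale without dox (SE 0.178, adjusted p = 0.0112, limma), and the blocked value was −0.96 (adjusted p = 0.00464). With dox the difference was −0.53 (SE 0.178, adjusted p = 0.389). The difference between the dox arms was 0.50 (SE 0.252, adjusted p = 0.999).

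Dynap, which encodes a dynactin-associated membrane protein, had folds of 9.03, 12.1, 9.62 and 16.8 in GM no dox and 7.12, 3.97 and 8.11 in DM no dox. All 3 DM no dox values were below all 4 GM no dox values. It fell by 1.05 (SE 0.213, adjusted p = 0.0361, limma). With dox the folds were 13.1, 12.4, 13.9 and 8.75 in GM and 10.3, 9.31 and 8.33 in DM, and the difference was −0.46 (adjusted p = 0.637). The call was lost when replicate 1 or 3 of GM no dox or replicate 3 of DM no dox was left out, with adjusted p = 0.0799, 0.0613 and 0.222. That of Kbtbd11 was lost without replicate 3 of DM no dox (adjusted p = 0.1, limma).

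Igf2bp3 encodes an RNA-binding protein of embryonic cells, and its region lay at chr6:49111023-49111475, in an intron, at −177 bp from the start of a non-coding transcript of the gene. Its folds were 18.3, 17.2, 12.9 and 15.1 in GM +dox and 11.3, 9.29 and 7.06 in DM +dox, with no overlap. Without dox they were 6.16, 13.1, 5.37 and 14.8 in GM and 7.03, 6.16 and 7.33 in DM. The log2 difference with dox was −0.89 (SE 0.186, adjusted p = 0.0842, limma), and with the replicate block it was −0.83 (SE 0.174, adjusted p = 0.0302). Without dox it was −0.45 (adjusted p = 0.34).

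**Figure D5:**
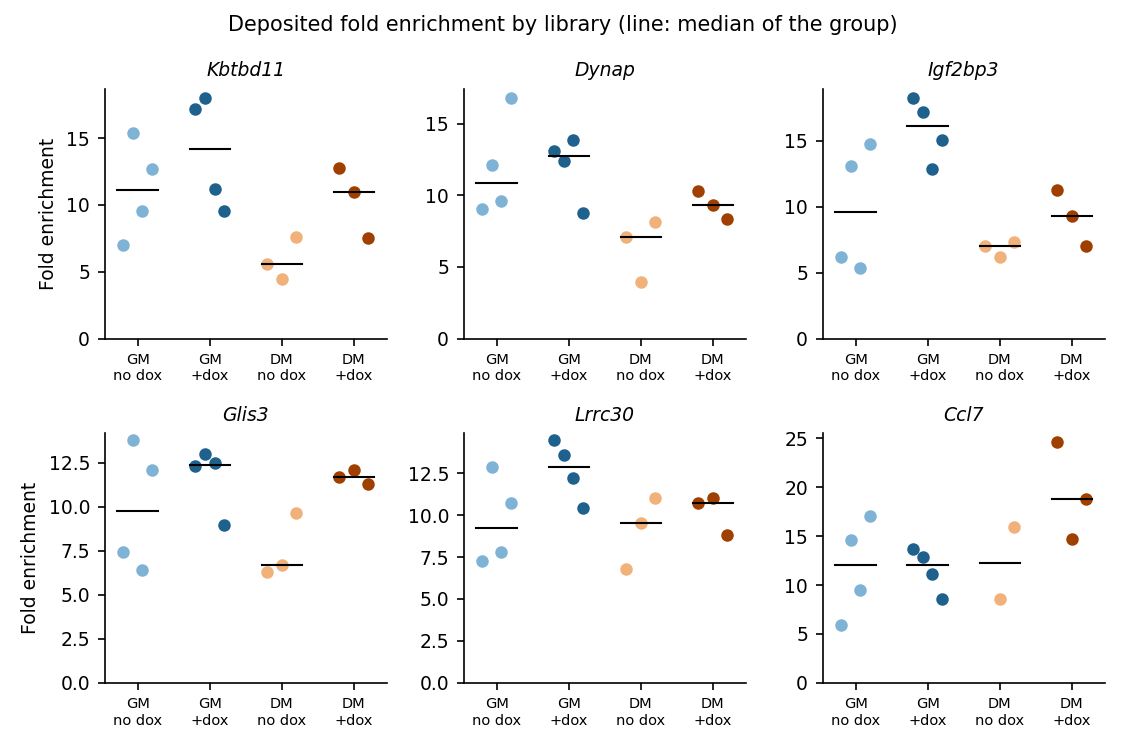
Each point is the deposited fold enrichment (y axis, a ratio to local background) of 1 library at the named region, by group on the x axis, and lines are group medians, with libraries that had no deposited peak left out. Kbtbd11 in DM no dox lies between 4.46 and 7.63 against 7.03 to 15.4 in GM no dox, and Igf2bp3 in DM +dox lies below all GM +dox values.

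As a whole the tested members barely moved. Their median log2 difference was −0.03 for dox in GM and 0.00 in DM, and under differentiation −0.03 in the no dox arm and −0.02 in the +dox arm. Over all 11011 regions the medians were 0.00, 0.00, 0.01 and 0.01, and over the 4907 high-GC promoter regions 0.02, 0.01, 0.06 and 0.05. Over the 5897 distal regions they were −0.03, −0.02, −0.04 and −0.03, as far from 0 as those of the members or farther. With a correction for GC content the members' medians for differentiation turned positive, 0.03 in both arms. Single members ranged from −1.05 to 0.48 for differentiation without dox and from −0.89 to 0.68 with dox.

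Except for dox in DM, more differences were negative than positive among the 80 tested members with TGANTCA and among all 207, which include them. Of the 207, 120 were negative for dox in GM, 115 for differentiation in the no dox arm and 113 in the +dox arm. Of the 127 without TGANTCA, 67 were negative and 60 positive for dox in GM. For differentiation these 127 had 62 negative and 65 positive in the no dox arm, and 61 and 66 in the +dox arm. With TGANTCA the difference was negative for 53 and positive for 27 for differentiation without dox (median −0.05), and negative for 52 with dox (median −0.06). For dox in GM it was negative for 53 (median −0.04), and for dox in DM for 40 (median 0.00). The 85 members with CCAAT had medians of −0.02, 0.01, 0.02 and 0.02 in the order of the comparisons, and the 27 with CAGCTG had 0.00, 0.01, 0.00 and −0.03. The comparisons share libraries, and these medians are descriptions with no test.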

How the data were processed

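Peak lists of 16 ATAC-seq libraries were used as deposited, with no pooling of replicates. Per the study's methods, the authors ran nf-core/atacseq 2.1.2 against mm10, removed a blacklist and called narrow peaks in each library, and the labels name MACS2 and deepTools. The deposited columns hold a display score, the fold enrichment (a ratio of fragment pileup to local background), the −log10 of the p-value and of the q-value, and the summit offset, all as the authors wrote them. Depth was solved from fold and p for peaks with −log10 p under 30, and the lowest background was 0.339 to 1.13 fragments per base in the 14 kept libraries, which limits how small a difference can be seen. No 2 of 120 pairs of lists were identical.

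The strongest peaks of each kept list, as many as the shortest held, were merged into union regions, with GRCm38 sequence and GENCODE M21. The members and gene lists were chosen with earlier results of these data known. Members were named by rule: up to 4 all-or-none members and limma calls per comparison and direction, the 10 strongest, those on gene lists, those at the GC threshold and those of lowest GC. limma 3.58.1 (R 4.3.3) fitted 4 group means with a trended prior and Benjamini-Hochberg adjustment. Tested on made-up values for dox in GM over 11011 regions, it recovered 96% of log2 changes of 1 and 35% of changes of 0.5. The made-up values had independent noise in each library, unlike the real ones, so recovery in the real data can differ. Comparisons with the DM groups of 3 libraries were not simulated. Same-numbered libraries deviated together, with correlations of 0.17 to 0.487 in each of the 13 pairs. Most pairs of different number had negative correlations, but some were positive, such as GM +dox replicate 4 with GM no dox replicate 3 (0.211). The main fit and the test of the difference between dox effects left the replicate number out. It was tried as a block in alternative fits. Alternatives covered list length, ranking, GC and distance limits, normalisation, GC correction, single libraries and all 16 libraries. Of the members the naming rule picked, 1 is not reported here.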

Additional observations from a re-analysis of the deposited data

Results flagged for a closer look

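In 2 of 45 groups of 4 GM libraries checked, 1 library stood apart from the other 3 by Dixon's criterion at the 95% level, and chance alone gives about 1 in 20 such groups. Fold enrichment at Glis3 in GM +dox had a gap to range ratio of 0.831, with replicate 4 at 8.94 and the others at 12.3 to 13. Fold enrichment at Eif2ak3 in GM +dox had a ratio of 0.858, with replicate 2 at 22.2 and the others at 16.9 to 17.7.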

How the results depend on the processing

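All-or-none counts of members in 4 comparisons (dox in GM with 3, dox in DM with 4, differentiation in the no dox arm with 13 and in the +dox arm with 11) depended on the lists. With all deposited peaks they were 1, 5, 1 and 1, and with lists 0.5 times as long 0, 2, 0 and 3. A GC limit of 45% left 136 members and gave 1, 1, 5 and 5, and one of 55% gave 1214 members and 6, 12, 24 and 24. With all 16 libraries the last 3 were 1, 8 and 3, with numbers 3 and 4 alone the 4 counts were 14, 17, 39 and 32, and with numbers 1 and 2 alone, which only dox in GM allows, 23. Ranking by fold gave 7 for the +dox arm. Leaving out 1 library gave 3 to 5, 7 to 11, 14 to 27 and 11 to 24. The count for the no dox arm was 27 without DM no dox replicate 2, and that for the +dox arm 24 when DM +dox replicate 2 was left out and 19 when replicate 4 of GM +dox was. For dox in GM it was 5 without replicate 2 or 4 of GM no dox or replicate 2, 3 or 4 of GM +dox. For dox in DM every library left out raised it by over 1.5 times, since smaller groups meet the rule more easily.

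The difference in the share of members with a peak became 13.6, 11.5, 3.43 and 1.33 points with all deposited peaks, where list length differs between libraries. A GC limit of 45% gave −6.8 for dox in GM, −7.97 for the no dox arm and −4.35 for the +dox arm. A limit of 55% gave −0.604 for dox in DM and 0.961 for the +dox arm. All 16 libraries gave 6.75 for dox in DM, −12.7 for the no dox arm and −5.09 for the +dox arm, where ranking by fold gave 0.184 and a distance limit of 500 bp −0.343. Leaving out 1 library gave −1.88 to 0.848, −3.58 to −1.7, −1.88 to 0.885 and −3.47 to −2.21.

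Counts of regions with changed fold enrichment (limma; 0, 0, 29 and 5 of 11011) moved as well. For dox in GM it was 1 with the replicate block and GC correction, 1 with missing peaks set to the lowest fold of the list and 1 on −log10 p. For dox in DM it was 4 with median centring, 10 with the replicate block and 12 with block and GC correction. For the no dox arm it was 56 with median centring, 50 with GC correction, 133 with the block, 142 with both, 2 where a strong peak was asked of all 14 libraries and 128 on −log10 p. For the +dox arm it was 28, 8, 39, 35, 0 and 139 in that order, and 276 of 26213 regions with missing peaks set to the lowest fold. That last setting took in all 452 members and called 7 of them, 2 higher and 5 lower. Leaving out 1 library gave 0 to 7, 0 to 0, 1 to 58 and 2 to 9. In the no dox arm it was 15, 7 and 58 without replicates 1, 2 and 4 of GM no dox and 1 without replicate 3 of DM no dox. In the +dox arm it was 2, 2, 3 and 9 without replicates 1 to 4 of GM +dox, and 2 without replicate 3 or 4 of DM +dox. For dox in GM it was 7 without GM no dox replicate 4. The cause of these shifts was not tested.

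Kbtbd11 and Dynap kept their direction under each alternative and lost the call with missing peaks set to the lowest fold (adjusted p = 0.0809 and 0.0957, limma), within ranges of 0.00464 to 0.1 and 0.0161 to 0.222. Igf2bp3 in the +dox arm ranged from 0.0123 to 0.646. Apart from Igf2bp3, the replicate block changed no call of a member. Depth differed between libraries and limits what smaller changes can be seen.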
